A study of Mus musculus with 9 samples.

Results

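The genes described here encode the subunits and named assembly factors of the 5 complexes of oxidative phosphorylation, measured by bulk RNA sequencing in mouse splenic naive CD4+ T cells. Members were chosen by gene symbol: every symbol starting with Nduf, Uqcr, Atp5 or Cox followed by a digit, together with Sdha, Sdhb, Sdhc, Sdhd and Cyc1, and without pseudogenes named -ps. They were 105 of 25160 genes, with 48 in complex I, 4 in complex II, 9 in complex III, 27 in complex IV and 17 in complex V. Of the 105 genes, 95 passed the expression filter and were tested: 45 in complex I, all 4 in complex II, all 9 in complex III, 20 in complex IV and all 17 in complex V. Among the tested genes 17 are assembly factors, which help build complex I or IV and are not part of the finished enzyme, and they are counted apart where this changes a value.

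There were 3 groups of 3 libraries, all from C57BL/6 spleens. Wild-type cells were cultured on 1 µg/ml plate-bound antibody against CD3e with 19 µg/ml antibody against CD40L (anti-CD40L group). Cells with the genotype label "cre", which the series design describes as lacking CD40L in T cells, were cultured on the same anti-CD3e with 19 µg/ml isotype antibody (KO-labelled group). Wild-type cells on anti-CD3e with 19 µg/ml isotype antibody were the control (WT isotype group). The sources used here do not give the promoter that drives Cre, the deleted exon or the length of the culture. The series addresses how CD40L, a surface protein of activated T cells, acts within the T cell that carries it. The labels do not state whether libraries within a group are from different mice, and the p-values therefore rest on a spread that may be technical.

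Cd40lg, the targeted gene, had 145, 136 and 150 CPM (counts scaled to the size of each library) in the KO-labelled libraries, against 142, 154 and 189 CPM in the WT isotype libraries. The groups overlapped (log2 fold change -0.17, adjusted p = 0.935), so the counts over this transcript do not separate the genotypes, and every direction given for the KO-labelled libraries carries that limit. Total counts ranged from 5316482 in anti-CD40L replicate 3 to 15565711 in KO-labelled replicate 3. The first principal component held 54.0% of the variance, and on it anti-CD40L replicate 3 was far from the rest: its score was -87.0, and the other 8 libraries lay between -10.2 and 19.1. Genes of CD4 T cells (8 of 9 markers with a row) summed to 4195 to 4419 CPM in anti-CD40L, 4054 to 4406 in KO-labelled and 4215 to 4651 in WT isotype libraries, and the 2 CD8 genes stayed at or below 11.9 CPM in every library. The summed level of 9 myeloid genes was 46.0 to 51.6 CPM in anti-CD40L, 57.1 to 104 in KO-labelled and 80.5 to 92.1 in WT isotype libraries. Most of this sum was 1 gene, Ctss. It had 43.4, 45.7 and 45.5 CPM in anti-CD40L, 88.2, 56.1 and 52.0 in KO-labelled and 77.9, 74.0 and 86.7 CPM in WT isotype libraries. Itgam had 0.269, 0.304 and 0 CPM in anti-CD40L, 2.28, 1.10 and 1.40 in KO-labelled and 2.60, 1.33 and 0.918 CPM in WT isotype libraries. Cd68 overlapped between the groups, with 2.06, 3.65 and 6.11 CPM, 4.34, 2.64 and 3.12 CPM, and 4.03, 4.56 and 3.67 CPM in the same order. Lyz2, Csf1r, Adgre1 and Fcgr1 were at or below 1.63 CPM in every library. S100a8 and S100a9 had counts in KO-labelled replicate 1 only, at 2.71 and 4.66 CPM. The summed level of 9 B cell genes was 18.7 to 25.7 CPM in anti-CD40L, 14.9 to 39.4 in KO-labelled and 23.9 to 54.5 in WT isotype libraries, and none of the 9 was at 0 in a whole group. Of these, Fcer2a had 0.448, 1.52 and 0 CPM in anti-CD40L, 0.650, 0.293 and 0.827 in KO-labelled and 13.1, 16.4 and 5.51 CPM in WT isotype libraries. The part of these cells, of depth and of replicate 3 in the results on respiratory genes was not tested, except where a value without a library is given. In bulk samples, fewer cells of a type and less RNA per cell cannot be told apart.

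Oxidative phosphorylation makes ATP at the inner mitochondrial membrane. Complex I (NADH dehydrogenase) and complex II (succinate dehydrogenase, which is also an enzyme of the citric acid cycle) pass electrons to ubiquinone, complex III passes them to cytochrome c, and complex IV passes them to oxygen. Complexes I, III and IV pump protons, and complex V, the ATP synthase, uses the proton gradient. Naive T cells rely largely on this pathway, and activation through the T cell receptor enlarges it along with glycolysis. A small set of subunits of complexes I, III, IV and V is encoded in mitochondrial DNA; those 13 genes were not analysed here, so the values concern nuclear genes only.

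Per kb of transcript, the beta and alpha subunits of ATP synthase were the highest of all members. Averaged over the 9 libraries, Atp5b (the catalytic beta subunit) was at 725 CPM per kb and Atp5a1 (the alpha subunit) at 392 CPM per kb. Within the other complexes, the highest members were Cox4i1 (a regulatory subunit of complex IV) at 330, Uqcrh (the hinge protein of complex III) at 261, Ndufa4 (named for complex I and since placed with complex IV) at 168, and Sdhb (the iron-sulfur subunit of complex II) at 97.2 CPM per kb. The median level was 166 CPM per kb over 11 complex IV subunits, 165 over 16 members of complex V, 104 over 8 of complex III, 77.9 over 4 of complex II and 59.1 over 34 of complex I. Assembly factors were lower, with a median of 14.7 CPM per kb over 8 factors of complex I and 18.1 over 9 of complex IV. The lowest tested member was Ndufaf3 (a complex I assembly factor) at 4.88 CPM per kb, and Cox19 (a copper-handling factor of complex IV) was at 6.38. The lowest subunits were Uqcrq at 61.0 in complex III and Sdhc at 28.9 CPM per kb in complex II. The rank of Uqcrq rests on an assigned length of 1521 bases, against 445, 535 and 547 bases for Uqcr11, Uqcrb and Uqcrh. In complex V the lowest value was that of Atp5g1, at 21.2 CPM per kb. Its assigned transcript length of 4715 bases is longer than the span of the gene (chr11:96072793-96075694), so this value is not a reliable level.

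**Figure D1:**
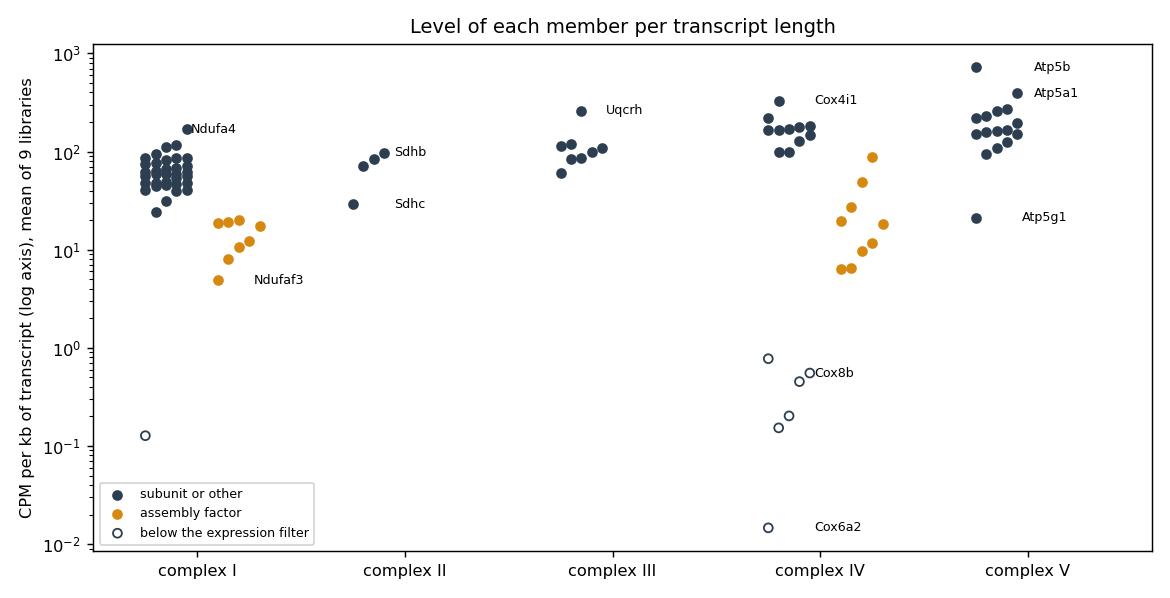
Mean level of each member over 9 libraries, in CPM per kb of transcript on a log axis, by complex; dark points are subunits, orange points assembly factors and hollow points members below the expression filter. Atp5b is highest at 725 CPM per kb, and the assembly factors of complexes I and IV lie below most subunits of the same complex.

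Where a subunit exists in several forms, the libraries held the form used in most tissues. Cox4i1, the general form of subunit 4, ranged from 224 to 276 CPM over the 9 libraries, while Cox4i2, a form known from lung, reached at most 0.538 CPM. Cox6a1 was between 82.8 and 114 CPM, and its heart and muscle form Cox6a2 had a count in 1 library only, at 0.0896 CPM. Cox7a2 was between 67.3 and 94.7 CPM, and the muscle form Cox7a1 reached 0.318 CPM. Cox8a was between 85.3 and 123 CPM; Cox8b, another muscle form, had 1.72 CPM in anti-CD40L replicate 3, 0.0732 CPM in KO-labelled replicate 2 and 0 in the other 7 libraries. Cox6b1 was between 109 and 157 CPM, against at most 0.855 CPM for its testis form Cox6b2. The other members below the filter were Cox7b2, Cox8c, Ndufa4l2, Ndufb4c and Ndufa11b; Cox8c and Ndufa11b had no count in any library, and Ndufb4c reached 0.955 CPM. The 3 genes of subunit c, the membrane ring of ATP synthase, were all present. Averaged over the 9 libraries, Atp5g3 was at 196 CPM, Atp5g1 at 100 and Atp5g2 at 91.6 CPM. Per kb, Atp5g3 was at 271 and Atp5g2 at 125. The value of Atp5g1, 21.2 CPM per kb, rests on an assigned length above the span of its gene and was not ranked.

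With anti-CD40L against WT isotype, 4 members of the respiratory complexes moved: Sdhd, Atp5g3 and Ndufc2 rose and Cox7a2l fell. A gene is called here when its adjusted p is under 0.05 in the quasi-likelihood F test of edgeR, with adjustment over all 11256 tested genes. The 4 calls were 4.21% of 95 members, while 9.37% of all tested genes were called in either direction (1055 genes). By direction, 3 members were called higher and 1 lower, against 328 higher and 727 lower of 11256 tested genes. The median log2 fold change was 0.04 over the members and -0.01 over all tested genes. At an unadjusted edgeR p under 0.05, 13 of 95 members were higher and 2 lower, against 1334 higher and 1637 lower of 11256 tested genes. The members' median rested on single control libraries: with 37 of 95 members below 0 in all 9 libraries, it was 0.13 with 22 below 0 without WT isotype replicate 2, and 0.00 with 47 below 0 without WT isotype replicate 3. By complex the median was 0.02 for complex I, 0.07 for II, 0.06 for III, 0.07 for IV and 0.10 for V. The 3 anti-CD40L libraries lay above all 3 WT isotype libraries for 17 members (17.9%), against 15.4% of all tested genes. They lay below all 3 for 3 members (3.16%), Cox7a2l, Uqcrh and Cox19, against 17.2% of all tested genes.

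Cox7a2l, which is related to the subunit 7a family and promotes the joining of complexes III and IV into supercomplexes, was the member with the lowest ratio. It had 71.9, 78.8 and 94.4 CPM in anti-CD40L libraries, 136, 119 and 100 CPM in KO-labelled libraries, and 145, 130 and 130 CPM in WT isotype libraries. All 3 anti-CD40L libraries were below every other library. The log2 fold change of anti-CD40L against WT isotype was -0.73 ± 0.12 (SE, 3 libraries a group), a ratio of 0.602 (edgeR adjusted p = 0.00273). The call held in all 19 alternative analyses, with adjusted p between 1.02e-09 and 0.0192. Its 2 RefSeq transcripts held nearly the same reads, 10645 and 10614 in all, so the counts do not separate them. Its relatives Cox7a2 and Cox7a1 gave no call: Cox7a2 had 89.4, 88.9 and 93.1 CPM in anti-CD40L libraries and 78.6, 92.8 and 82.2 CPM in WT isotype libraries (adjusted p = 0.645), and Cox7a1 was below the filter. C57BL/6 mice are known to carry a shortened form of the Cox7a2l protein, which counts per transcript do not show.

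Sdhd, a membrane anchor of succinate dehydrogenase, had 106, 95.4 and 117 CPM in anti-CD40L libraries, 75.0, 70.2 and 78.5 CPM in KO-labelled libraries, and 83.7, 83.4 and 77.1 CPM in WT isotype libraries. The anti-CD40L libraries were all above the other 6. The log2 fold change against WT isotype was 0.38 ± 0.09 (SE), a ratio of 1.30 (edgeR adjusted p = 0.0242). The other 3 subunits of complex II gave no call: the catalytic flavoprotein Sdha had a log2 fold change of -0.08, the iron-sulfur protein Sdhb 0.12 and the second anchor Sdhc 0.02. Atp5g3, 1 of the genes of subunit c, had 229, 207 and 289 CPM in anti-CD40L libraries, 156, 158 and 173 CPM in KO-labelled libraries, and 184, 190 and 178 CPM in WT isotype libraries, again with no overlap. Its log2 fold change was 0.39 ± 0.11 (SE), a ratio of 1.31 (edgeR adjusted p = 0.0395). The other subunit c genes gave values of 0.10 (Atp5g1) and 0.01 (Atp5g2) with no call, although all 3 encode the same mature protein. Ndufc2, an accessory subunit in the membrane arm of complex I, had 75.2, 66.6 and 68.2 CPM in anti-CD40L libraries, 46.8, 49.6 and 53.4 CPM in KO-labelled libraries, and 57.6, 57.1 and 50.4 CPM in WT isotype libraries. Its log2 fold change was 0.35 ± 0.10 (SE), a ratio of 1.27 (edgeR adjusted p = 0.0460).

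The calls of these 3 genes against WT isotype were lost without single libraries. Without WT isotype replicate 1, 2 or 3, or without anti-CD40L replicate 1, Cox7a2l was the single member called, and the number of genes called over the whole table was then 495, 545, 530 and 486. The adjusted p of Sdhd was 0.0577, 0.0652, 0.0959 and 0.0717 without these 4 libraries in turn, that of Atp5g3 0.0950, 0.0902, 0.119 and 0.0605, and that of Ndufc2 0.0845, 0.0996, 0.164 and 0.158. Over the same 4 omissions the log2 fold changes stayed between 0.34 and 0.41 for Sdhd, 0.37 and 0.43 for Atp5g3, and 0.29 and 0.39 for Ndufc2. The Atp5g3 call was also lost without anti-CD40L replicate 3, its highest library, where the log2 fold change was 0.25 (adjusted p = 0.0770), and without KO-labelled replicate 2 (adjusted p = 0.0613). Leaving out anti-CD40L replicate 2 also ended the Ndufc2 call (adjusted p = 0.0525), as did leaving out KO-labelled replicate 2 (adjusted p = 0.0763). With only the 2 groups compared in the fit, neither Atp5g3 nor Ndufc2 was called (adjusted p = 0.0510 and 0.0593). Ndufc2 was also not called with scaling by library totals only, without an expression filter or with a replicate block (adjusted p = 0.0508, 0.0545 and 0.0719). Without KO-labelled replicate 2, 2 members were called, and without KO-labelled replicate 3, 7 members. GENCODE places Ndufc2 over a second gene on the same strand, Gm16053, which has no row in the table, so reads of the 2 cannot be told apart; Sdhd, Atp5g3 and Cox7a2l overlap no other annotated gene.

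**Figure D2:**
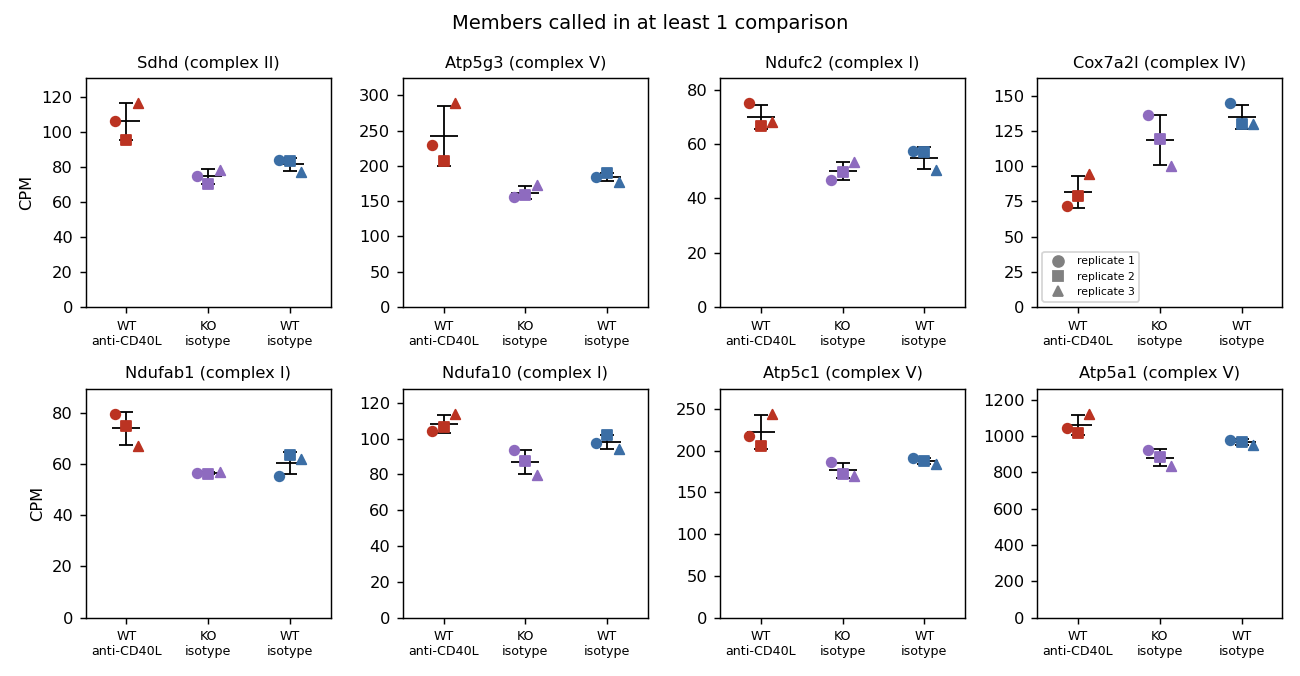
CPM per library of the 8 members called in at least 1 comparison, with anti-CD40L, KO-labelled and WT isotype groups from left to right; symbols mark the replicate, and bars give mean ± SD of 3 libraries. Cox7a2l is lower in all 3 anti-CD40L libraries (71.9 to 94.4 CPM) than in the other 6 (100 to 145 CPM), and the other 7 genes are higher in anti-CD40L than in KO-labelled libraries.

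The promoter windows of Sdhd, Atp5g3, Ndufc2 and Cox7a2l are shown because these 4 members were called against WT isotype. Whether they differ from the rest of their complexes was not tested. Each is a RefSeq window of 300 bases around an annotated start, on build GRCm38.p6, written 5′ to 3′ on the strand of the gene. They are chr9:50603800-50604099 (minus strand) for Sdhd, chr2:73911277-73911576 (minus) for Atp5g3, chr7:97399753-97400052 (plus) for Ndufc2 and chr17:83514284-83514583 (minus) for Cox7a2l. The Atp5g3 window surrounds a start that lies inside the span of the transcript counted. Capitals mark matches to motifs of factors known to act on respiratory genes, searched on both strands: NRF1 (GCGCNTG, part of its longer palindromic site), the ETS family that includes GABP (CCGGAAG), YY1 (AAGATGG), and the E-box bound by MYC and USF (CACGTG).
Sdhd: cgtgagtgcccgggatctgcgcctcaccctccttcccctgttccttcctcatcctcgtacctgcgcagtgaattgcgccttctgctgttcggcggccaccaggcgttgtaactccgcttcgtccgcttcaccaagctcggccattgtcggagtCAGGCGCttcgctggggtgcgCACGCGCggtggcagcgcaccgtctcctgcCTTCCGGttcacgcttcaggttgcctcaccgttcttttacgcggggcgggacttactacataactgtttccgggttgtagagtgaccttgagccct
Atp5g3: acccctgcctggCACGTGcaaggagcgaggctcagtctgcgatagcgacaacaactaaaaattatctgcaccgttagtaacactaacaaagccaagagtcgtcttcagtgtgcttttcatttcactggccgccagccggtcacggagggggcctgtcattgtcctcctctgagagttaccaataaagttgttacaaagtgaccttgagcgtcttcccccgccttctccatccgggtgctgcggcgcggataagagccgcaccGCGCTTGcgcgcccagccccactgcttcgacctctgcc
Ndufc2: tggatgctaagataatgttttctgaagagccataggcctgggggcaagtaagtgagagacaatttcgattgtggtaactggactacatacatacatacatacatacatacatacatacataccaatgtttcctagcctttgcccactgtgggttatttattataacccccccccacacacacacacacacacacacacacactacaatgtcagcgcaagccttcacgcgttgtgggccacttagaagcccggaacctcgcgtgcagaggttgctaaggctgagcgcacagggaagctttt
Cox7a2l: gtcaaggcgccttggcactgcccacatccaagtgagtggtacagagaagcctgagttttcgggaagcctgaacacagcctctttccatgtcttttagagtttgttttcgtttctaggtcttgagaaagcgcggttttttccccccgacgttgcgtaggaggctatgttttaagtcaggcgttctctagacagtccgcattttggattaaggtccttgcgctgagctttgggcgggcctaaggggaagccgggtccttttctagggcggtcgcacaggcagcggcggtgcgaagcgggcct
The Sdhd window held NRF1 matches at bases 154 and 175 and an ETS match at base 205, and the Atp5g3 window an NRF1 match at base 263 and an E-box at base 13. None of the 4 motifs was in the Ndufc2 or Cox7a2l windows. Of 83 members with a window, 38 held the NRF1 motif (45.8%), against 17.8% of 27025 genes with a window and 33.1% of the tested genes among them. The ETS motif was in 24 members (28.9%), against 9.93% of all windows and 22.1% of tested genes, and the YY1 motif in 14 members (16.9%), against 7.28% and 8.73%. The E-box was in 6 members (7.23%), against 8.09% and 12.3%. NRF1 matches were in 9 of 15 windows of complex V, 19 of 40 of complex I and 4 of 20 of complex IV, while ETS matches were in 8 of 20 windows of complex IV. A match is a description of the letters in these windows.

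Several members with larger fold changes had no call against WT isotype. Ndufaf4, a complex I assembly factor, had 96.3, 74.2 and 98.4 CPM in anti-CD40L libraries, 52.8, 59.1 and 101 CPM in KO-labelled libraries, and 61.6, 56.4 and 55.9 CPM in WT isotype libraries. KO-labelled replicate 3 was at the anti-CD40L level and apart from the other KO-labelled libraries. The log2 fold change of anti-CD40L against WT isotype was 0.62 (edgeR adjusted p = 0.0673), and the gene was called without anti-CD40L replicate 2, KO-labelled replicate 1 or KO-labelled replicate 3 (adjusted p = 0.0463, 0.0361 and 0.00472). It was also called by DESeq2 (adjusted p = 0.0228), without an expression filter (adjusted p = 6.70e-06) and with only the 2 groups compared in the fit (adjusted p = 0.00839). Cox20, an assembly factor that handles subunit 2 of complex IV, followed the same order, with 30.3, 22.0 and 35.9 CPM in anti-CD40L libraries, 16.9, 17.0 and 28.2 CPM in KO-labelled libraries, and 20.2, 18.1 and 18.8 CPM in WT isotype libraries. Its log2 fold change was 0.62 (edgeR adjusted p = 0.0944), with a call without anti-CD40L replicate 2 or KO-labelled replicate 3 (adjusted p = 0.0398 and 0.0371) and without an expression filter (adjusted p = 0.00744). Ndufaf6, a low-level complex I assembly factor at 10.4, 7.61 and 17.6 CPM in anti-CD40L libraries and 9.32, 6.37 and 4.36 CPM in WT isotype libraries, had the highest ratio of all members (log2 fold change 0.78, adjusted p = 0.158). Over the 17 assembly factors the median log2 fold change was 0.19, over the 78 other members 0.03, and no assembly factor was called.

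Uqcrh of complex III had 120, 142 and 121 CPM in anti-CD40L libraries, against 148, 177 and 150 CPM in WT isotype libraries (log2 fold change -0.31, adjusted p = 0.136), and was called lower when no expression filter was applied. Cyc1, cytochrome c1, had 131, 136 and 176 CPM in anti-CD40L libraries, against 120, 128 and 115 CPM in WT isotype libraries (log2 fold change 0.28, adjusted p = 0.133). Atp5pb, the b subunit of the stator of ATP synthase, had 284, 256 and 280 CPM in anti-CD40L libraries, against 235, 229 and 219 CPM in WT isotype libraries (log2 fold change 0.26, adjusted p = 0.0605). For both genes every anti-CD40L library lay above every WT isotype library, and neither adjusted p passed the threshold. Atp5pb was called against WT isotype by DESeq2, with upper-quartile scaling, by limma-voom with quality weights and without KO-labelled replicate 3 (adjusted p = 0.0197, 0.0469, 0.0383 and 0.0342). Against KO-labelled libraries its log2 fold change was 0.29 (edgeR adjusted p = 0.0534), with a call in 7 of the 19 alternatives. Core subunits of complex I named here were close to their controls, with log2 fold changes of 0.09 for Ndufs1, 0.10 for Ndufs7 and -0.01 for Ndufv1. The same held for Uqcrc1 (0.06) and the Rieske protein Uqcrfs1 (0.10) of complex III, and for Cox4i1 (-0.02), Cox5a (0.10) and Cox5b (-0.07) of complex IV; none was called. The isoforms Cox6a1 (-0.15), Cox6b1 (0.04) and Cox8a (-0.01) also had no call. Over all 7 core subunits of complex I the median was 0.10 and the highest value 0.22. None of the 7 was called in the main fit, and 1 was higher at an unadjusted edgeR p under 0.05. DESeq2 called the core subunit Ndufv2 in both comparisons of anti-CD40L. Atpif1, which encodes an inhibitor of ATP synthase and is no member by its symbol, averaged 9.21 ± 2.36 CPM in anti-CD40L, 10.4 ± 2.02 in KO-labelled and 11.4 ± 1.79 CPM in WT isotype libraries (SD, n = 3 each), with no call in any comparison.

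**Figure D3:**
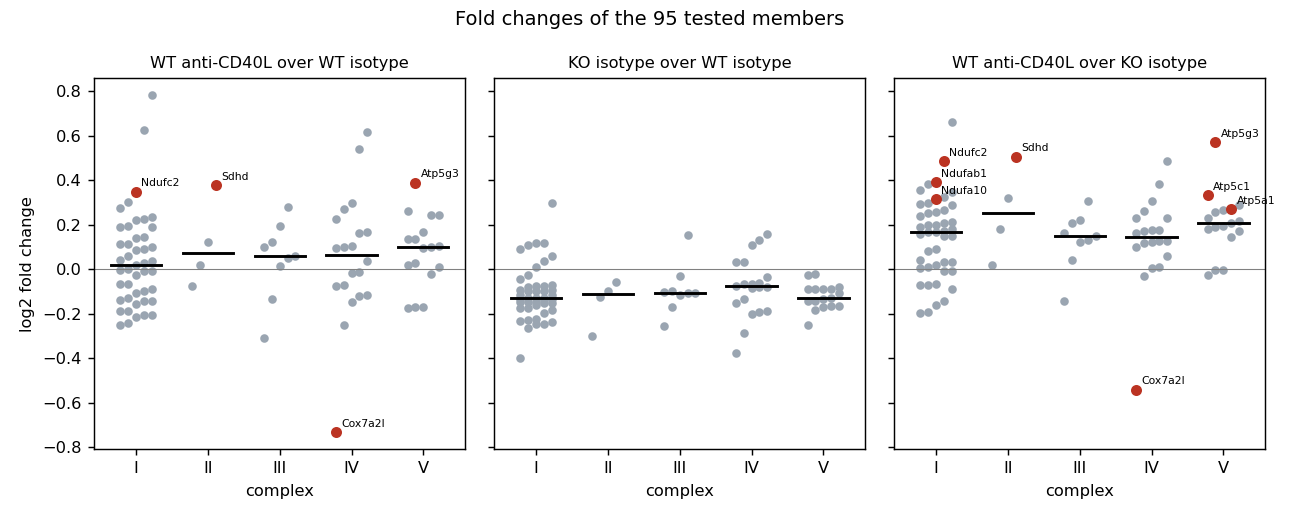
Log2 fold changes of the 95 tested members by complex in the 3 comparisons; red points are called at adjusted p under 0.05 and named, and black lines are medians. The KO-labelled libraries have no called member and 81 of 95 values below 0 against WT isotype, and Cox7a2l is the lowest point in both comparisons of anti-CD40L.

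In KO-labelled against WT isotype libraries no member was called, and most values were slightly below 0. The share of all tested genes called was also 0%; edgeR gave 278 genes higher and 371 lower at an unadjusted p under 0.05, and among the members 0 higher and 2 lower, Sdhc and Atp5d. Over all genes DESeq2 called 44, the fit without an expression filter 102, limma-voom with quality weights 38 and a fit of the 2 groups alone 3, none of them a member. The log2 fold change was below 0 for 81 of 95 members, with a median of -0.11, against 49.4% of all tested genes and a median of 0.00. All 4 members of complex II and all 17 of complex V were below 0, as were 37 of 45 in complex I, 8 of 9 in complex III and 15 of 20 in complex IV. Of 17 assembly factors, 9 were below 0. The KO-labelled libraries lay below all WT isotype libraries for 12 members (12.6%), against 7.62% of all tested genes, and above all of them for 1 member, Uqcrb (1.05%), against 7.61%.

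Sdhc had 86.9, 80.2 and 69.9 CPM in KO-labelled libraries, against 90.3, 107 and 94.3 CPM in WT isotype libraries (log2 fold change -0.30, adjusted p = 0.812). Atp5d, the delta subunit of ATP synthase, had 201, 199 and 175 CPM in KO-labelled libraries, against 223, 252 and 209 CPM in WT isotype libraries (log2 fold change -0.25, adjusted p = 0.780). The groups did not overlap for either gene, and neither passed the test. The largest sizes in the other complexes were also uncalled: Ndufaf3 -0.40 and Ndufaf4 0.30 in complex I, Cox19 -0.37 and Cox14 -0.29 in complex IV, and Uqcr10 -0.26 and Uqcrh -0.17 in complex III. The values of the members called in the other comparisons were -0.13 for Sdhd, -0.18 for Atp5g3, -0.14 for Ndufc2, -0.19 for Cox7a2l, -0.09 for Ndufab1, -0.18 for Ndufa10, -0.09 for Atp5c1 and -0.13 for Atp5a1, with adjusted p of 0.877 to 0.948.

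The low values rested in part on 2 libraries. WT isotype replicate 2 was the highest of its group for 75 of 95 members (78.9%), against 36.3% of all tested genes, and KO-labelled replicate 3 was the lowest of its group for 71 (74.7%), against 40.3%. The median log2 difference from the other 2 libraries of the group was 0.20 for WT isotype replicate 2 and -0.19 for KO-labelled replicate 3 over the members, and 0.00 and -0.02 over all tested genes. Without WT isotype replicate 2 the median of KO-labelled against WT isotype was -0.04, with 68 of 95 members below 0. Without KO-labelled replicate 3 it was -0.06, with 71 below 0, and without KO-labelled replicate 1, the highest of its group for 61 members, it was -0.17.

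Transcript length moved with this spread. In the 50 members with transcripts under 1000 bases the median difference from the rest of the group was 0.26 for WT isotype replicate 2 and -0.23 for KO-labelled replicate 3, and in the 40 longer members 0.07 and -0.14. In the 706 other tested genes under 1000 bases the same values were 0.15 and -0.15, and in the 9418 longer ones -0.01 and -0.01. For KO-labelled against WT isotype, the median log2 fold change was -0.13 in short members, -0.10 in longer members, -0.07 in other short genes and 0.01 in other longer genes. For anti-CD40L against WT isotype it was 0.00 in short and 0.12 in longer members, with 25 of 50 and 8 of 40 below 0. In other short and longer genes it was -0.05 and -0.01. For anti-CD40L against KO-labelled libraries the medians were 0.15 in short and 0.21 in longer members, and 0.02 and -0.01 in other genes. The part of transcript length in these differences was not tested.

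**Figure D4:**
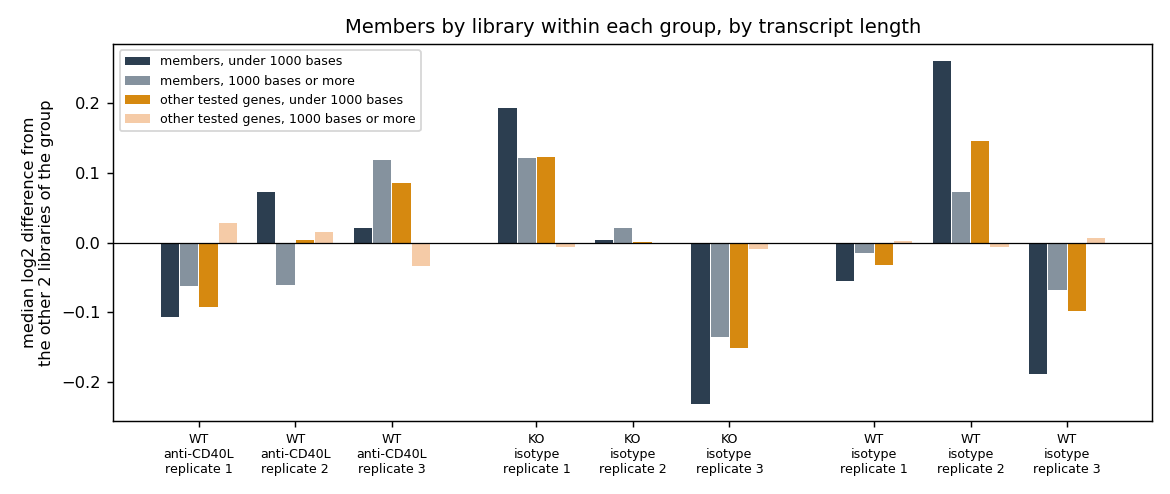
Median log2 difference of each library from the other 2 libraries of its group, for members and other tested genes with transcripts under 1000 bases and of 1000 bases or more; groups run anti-CD40L, KO-labelled, WT isotype from left to right. WT isotype replicate 2 is high and KO-labelled replicate 3 low in short members (0.26 and -0.23) and in other short genes (0.15 and -0.15), and the other longer genes are near 0.

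With anti-CD40L against KO-labelled libraries, 7 members rose and 1 fell. This comparison shares the anti-CD40L libraries with the first and the KO-labelled libraries with the second, so it is no separate evidence. The 8 calls were 8.42% of 95 members, while 6.83% of all tested genes were called in either direction (769 genes). By direction, 7 members were called higher and 1 lower, against 202 higher and 567 lower of 11256 tested genes. The median log2 fold change was 0.17 over the members, with 83.2% above 0, and -0.01 over all tested genes, with 48.6% above 0. Without KO-labelled replicate 3 the members' median was 0.11 with 28 of 95 below 0, and without KO-labelled replicate 1 it was 0.24 with 6 below 0, against 16 below 0 with all 9 libraries. By complex the median was 0.17 for complex I, 0.25 for II, 0.15 for III, 0.15 for IV and 0.21 for V. Anti-CD40L libraries lay above all KO-labelled libraries for 28 members (29.5%), against 10.3% of all tested genes, and below all of them for Cox7a2l alone (1.05%), against 15.9%.

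The rises were in complex I (Ndufc2, Ndufab1, Ndufa10), complex II (Sdhd) and complex V (Atp5g3, Atp5c1, Atp5a1). Sdhd had a log2 fold change of 0.51 ± 0.09 (SE, edgeR adjusted p = 0.00536), Atp5g3 of 0.57 ± 0.11 (adjusted p = 0.00592) and Ndufc2 of 0.49 ± 0.10 (adjusted p = 0.0103), and these 3 calls held in all 19 alternatives. Ndufab1, the acyl carrier protein of mitochondria and a subunit of complex I, had 79.7, 75.0 and 67.1 CPM in anti-CD40L libraries, against 56.4, 56.1 and 57.0 CPM in KO-labelled libraries (log2 fold change 0.39, adjusted p = 0.0269). Ndufa10, an accessory subunit of complex I, had 104, 106 and 114 CPM in anti-CD40L libraries, against 93.3, 87.2 and 79.8 CPM in KO-labelled libraries (log2 fold change 0.32, adjusted p = 0.0432). Atp5c1, the gamma subunit that forms the rotating stalk of ATP synthase, had 217, 205 and 244 CPM in anti-CD40L libraries, against 187, 173 and 169 CPM in KO-labelled libraries (log2 fold change 0.33, adjusted p = 0.0268). Atp5a1 had 1045, 1017 and 1122 CPM in anti-CD40L libraries, against 923, 886 and 833 CPM in KO-labelled libraries (log2 fold change 0.27, adjusted p = 0.0473). No value of the 2 groups overlapped for these 7 genes. Cox7a2l fell to a ratio of 0.687 (log2 fold change -0.54 ± 0.12, SE; adjusted p = 0.0170).

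The call of Atp5a1 was lost without any single library except KO-labelled replicate 1, and so was that of Ndufa10, with adjusted p up to 0.154 and 0.139. Both calls were also lost with upper-quartile scaling, with library totals only, with only the 2 groups compared in the fit and with a replicate block (adjusted p = 0.0560, 0.0532, 0.117 and 0.0815 for Atp5a1, and 0.0511, 0.0511, 0.105 and 0.0719 for Ndufa10), and that of Ndufa10 without an expression filter (adjusted p = 0.05004). Ndufab1 was not called without anti-CD40L replicate 1 or 2 or KO-labelled replicate 1 or 2 (adjusted p = 0.0988, 0.0616, 0.0710 and 0.101). Atp5c1 was not called without anti-CD40L replicate 1 or 3 or KO-labelled replicate 2 or 3 (adjusted p = 0.0582, 0.0602, 0.119 and 0.0546), and Cox7a2l without anti-CD40L replicate 1 or KO-labelled replicate 1 or 2 (adjusted p = 0.0888, 0.0855 and 0.0897). With only the 2 groups compared, Ndufab1, Atp5c1 and Cox7a2l were not called (adjusted p = 0.0582, 0.0719 and 0.0553), nor was Ndufab1 with a replicate block (adjusted p = 0.0526). Leaving out anti-CD40L replicate 1 or KO-labelled replicate 2 left 3 members called, and leaving out anti-CD40L replicate 3 left 5. Ndufab1 and Atp5c1 each have a named pseudogene (Ndufab1-ps and Atp5c1-ps) and Atp5a1 overlaps Haus1 on the opposite strand, so their reads could be shared. Haus1 averaged 16.7 CPM in anti-CD40L and 13.1 CPM in KO-labelled libraries, beside 1061 and 881 CPM for Atp5a1. The part of shared reads in these calls was not tested. Members without a call were also mostly above 0: Atp5b was at 0.22 (adjusted p = 0.101), Cyc1 at 0.31, Sdhc at 0.32, Sdhb at 0.18, Uqcrc2 at 0.22, Ndufa4 at 0.19 and Cox5a at 0.23 on the log2 scale.

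Of the 5 complexes, complex V took the largest part of the counts when its members were added up. The summed level of its 17 genes was 4537, 4465 and 4893 CPM in anti-CD40L libraries, 4111, 3934 and 3718 CPM in KO-labelled libraries, and 4220, 4417 and 4067 CPM in WT isotype libraries. All anti-CD40L sums were above all others, and KO-labelled replicate 1 lay within the WT isotype range. Atp5b and Atp5a1 held much of these sums. Their means were 1505 and 1061 CPM in anti-CD40L, 1296 and 881 in KO-labelled, and 1369 and 965 CPM in WT isotype libraries. Neither was called in anti-CD40L against WT isotype (edgeR adjusted p = 0.253 and 0.263). Complex II summed to 569, 552 and 577 CPM in anti-CD40L libraries, 520, 501 and 472 CPM in KO-labelled libraries, and 531, 562 and 537 CPM in WT isotype libraries, where the anti-CD40L and WT isotype ranges overlapped and the KO-labelled libraries were below both. Complexes I, III and IV overlapped between all 3 groups, apart from complex I in anti-CD40L (2368 to 2436 CPM) against KO-labelled libraries (1995 to 2294 CPM); in WT isotype libraries complex I spanned 2155 to 2533 CPM. All 105 members summed to 10095, 10147 and 10686 CPM in anti-CD40L libraries, 9676, 9100 and 8471 CPM in KO-labelled libraries, and 9621, 10389 and 9285 CPM in WT isotype libraries, between 0.855% and 1.05% of the counts of a library.

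**Figure D5:**
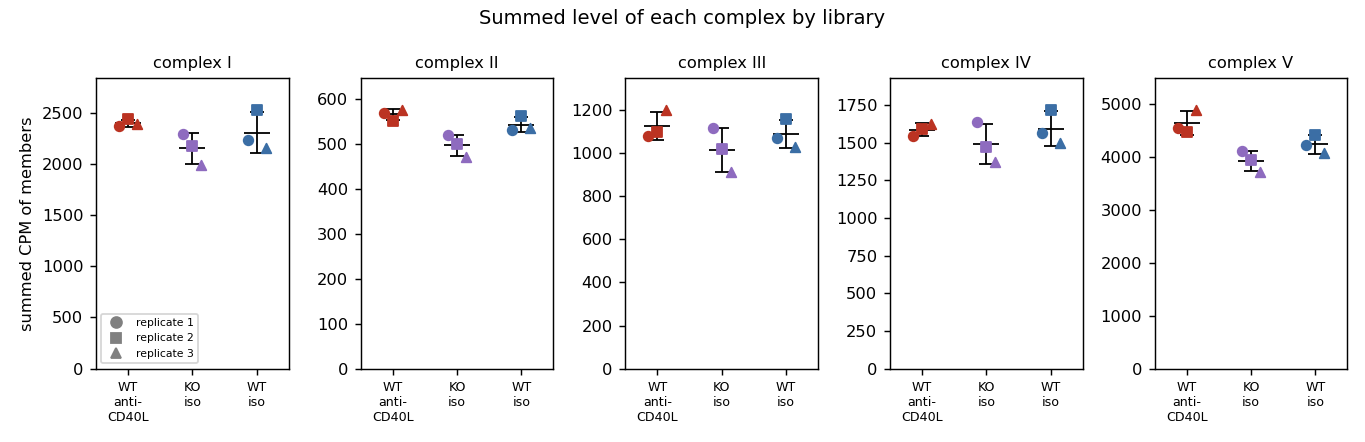
Summed CPM of the members of each complex by library, with anti-CD40L, KO-labelled and WT isotype groups from left to right; bars give mean ± SD of 3 libraries and every axis starts at 0. For complex V the anti-CD40L libraries (4465 to 4893 CPM) lie above the other 6 (3718 to 4417 CPM).

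Genes that feed or surround the respiratory chain are given from lists of pathway genes, whose counts stand beside 9.37% of all tested genes called in either direction against WT isotype and 6.83% against KO-labelled libraries, with a median log2 fold change over all tested genes of -0.01 in both comparisons. By direction, 328 of the 11256 tested genes were called higher and 727 lower against WT isotype. Against KO-labelled libraries, 202 were called higher and 567 lower. Of 27 tested genes listed under the citric acid cycle and pyruvate oxidation, 3 rose and 2 fell with anti-CD40L against WT isotype. Against KO-labelled libraries, 5 rose and 2 fell. The 2 that fell were kinases that switch off pyruvate dehydrogenase. Pdk1 had 96.3, 80.6 and 71.5 CPM in anti-CD40L libraries, 144, 145 and 134 CPM in KO-labelled libraries, and 142, 103 and 132 CPM in WT isotype libraries. Its log2 fold change was -0.60 against WT isotype (adjusted p = 0.0114) and -0.76 against KO-labelled libraries (adjusted p = 0.00283). Pdk2 was low, at 4.98 ± 1.83 CPM in anti-CD40L, 10.2 ± 0.913 in KO-labelled and 11.2 ± 1.61 CPM in WT isotype libraries (SD, n = 3 each), with a log2 fold change of -1.11 against WT isotype (adjusted p = 0.0176) and -0.98 against KO-labelled libraries (adjusted p = 0.0370). The rises against WT isotype were Suclg2 (0.53), a subunit of succinyl-CoA ligase, Dlat (0.38), the E2 subunit of pyruvate dehydrogenase, and Idh3a (0.35), the catalytic subunit of the NAD-dependent isocitrate dehydrogenase. Against KO-labelled libraries Suclg2 (0.52), Mdh1 (0.44), which encodes the cytosolic form of malate dehydrogenase, and Dlat (0.40) led the rises. The median log2 fold change over this list was 0.13 against WT isotype and 0.17 against KO-labelled libraries.

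Of all 11256 tested genes, 328 were called higher and 727 lower with anti-CD40L against WT isotype (9.37% in either direction). Among 36 tested genes of cristae organisation and protein import, 4 rose in this comparison and none fell. They were Hspd1 (0.58), the mitochondrial chaperonin, Tomm70a (0.52), an import receptor, Opa1 (0.32), which shapes the inner membrane, and Hspa9 (0.27), the mitochondrial Hsp70; the list's median was 0.17. Against KO-labelled libraries 1 rose, Hspd1 (0.43), with a median of 0.15. Over all tested genes, 202 were called higher and 567 lower there (6.83% in either direction). Of 8 tested transporters, Vdac2 rose (0.28) and Ucp2 fell (-0.38) against WT isotype, and 4 rose against KO-labelled libraries, led by Slc25a4 (0.52), the ADP/ATP carrier, with Vdac3 (0.36) and Vdac1 (0.34). Of 46 assembly factors without a member prefix, Tmem126a rose in both comparisons (0.65 and 0.54). Among 26 genes of iron-sulfur cluster and haem synthesis Hspa9 rose and Slc25a38 fell (-0.45) against WT isotype, with no call against KO-labelled libraries. Of 17 genes of mitochondrial DNA maintenance and expression, Tk2 (-0.59) and Rrm2b (-0.56), which supply nucleotides, fell against WT isotype, and Tk2 (-0.73) against KO-labelled libraries. Of 14 nuclear regulators of respiratory genes, Myc rose (0.40) and Nfe2l2 fell (-0.39) against WT isotype, and Nfe2l2 fell (-0.36) against KO-labelled libraries. None of 21 genes of electron carriers and ubiquinone synthesis was called in any comparison. At an unadjusted edgeR p under 0.05 against WT isotype, 4 were higher and 2 lower, against 1334 and 1637 of 11256 tested genes. No gene of these lists was called in KO-labelled against WT isotype libraries.

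Of 29 calls named from these lists, 3 held without each of the 9 libraries in turn: Hspd1 against WT isotype, and Pdk1 and Slc25a4 against KO-labelled libraries. Tomm70a was not called against WT isotype without WT isotype replicate 2 (edgeR adjusted p = 0.0522), and Mdh1 was not called against KO-labelled libraries without KO-labelled replicate 2 (adjusted p = 0.0845). Against WT isotype, the Pdk1 call was lost without WT isotype replicate 1 or 3 (adjusted p = 0.0656 and 0.0570), that of Pdk2 without replicate 1 or 2 of that group (adjusted p = 0.0711 and 0.0691) and that of Myc without the same 2 libraries (adjusted p = 0.0520 and 0.0511). The other 21 calls were each lost without 3 or more of the 9 libraries in turn, with adjusted p up to 0.181, the value of Tmem126a against KO-labelled libraries without KO-labelled replicate 2.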

How the data were processed

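RNA sequencing libraries of 9 samples, 3 in each of 3 groups, were analysed, with groups and replicate numbers from the sample titles. The deposited table by the authors holds raw expected counts, in multiples of 0.5, for 42361 RefSeq transcripts. The submitters' processing notes name CASAVA 1.8.2, HISAT2 2.1.0 and build mm10. The sources used here do not state how reads were counted, whether strand was used or what was done with multiple alignments, and overlapping genes or close copies may share reads.

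Symbols came from the RefSeq table of GRCm38.p6 for 42203 transcripts and from GENCODE vM21 for 65; 93 had none. Per gene the transcript with the highest total was kept (33 members had several; over genes with more than 1 transcript the second held a median 0.992 of the first), and fractions were rounded up, so the test planned for whole counts was run on rounded estimated counts. Genes were filtered with filterByExpr and scaled with TMM, and 11256 were tested by quasi-likelihood F test in edgeR 4.0.16 (R 4.3.3, robust, 1 term per group, all 9 libraries) and Benjamini-Hochberg adjustment at 0.05; the common biological coefficient of variation was 0.127. SE is the log2 fold change divided by the square root of F. The fit was tested on simulated data. CPM use TMM-scaled totals, and CPM per kb the GENCODE transcript length, which 98 of the 105 members had. Promoter sequences are RefSeq's, on GRCm38.p6.

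The alternatives were DESeq2 1.42.0, limma 3.58.1 (voom, with and without quality weights), other scalings, no filter, the 2 groups alone, a replicate block, other summaries of transcripts and each library left out. Named were core subunits (1 of them is not reported here), isoform groups, every called member, the 2 largest fold changes and the highest and lowest level per complex, members below the filter, and up to 3 called genes per pathway list and direction. The members and lists were chosen with earlier results of these data known.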

Additional observations from a re-analysis of the deposited data

How the results depend on the processing

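No called result changed direction under any of the 19 alternatives. For anti-CD40L against WT isotype, 4 members were called; the count was 9 with DESeq2, 7 without an expression filter, 7 with limma-voom quality weights, and 1 to 7 with each library left out in turn. For anti-CD40L against KO-labelled libraries, 8 members were called; the count was 13 with limma-voom quality weights, 3 with only these 2 groups fitted, and 3 to 9 with each library left out. In that comparison the median log2 fold change of complex II was 0.25, and 0.17 with quality weights; with each library left out it was 0.16 to 0.34, and that of complex IV 0.11 to 0.23. Over all genes, 1055 were called in the first comparison, 1635 by DESeq2, 1698 without the filter and 486 to 1342 with each library left out; in anti-CD40L against KO-labelled, 769 were called, 1219 by DESeq2, 1305 without the filter, 1458 with quality weights, 481 with only the 2 groups and 346 to 1022 with each library left out. The cause of these changes was not tested. The replicate numbers gave no clear sign of pairs. For each library, the deviation of log2 CPM from its group mean was taken gene by gene. These deviations correlated between same-numbered libraries at 0.18, 0.08 and 0.08 in the first comparison. They correlated at -0.11, -0.01 and -0.05 in KO-labelled against WT isotype, and at -0.15, 0.06 and -0.05 in anti-CD40L against KO-labelled. With 3 libraries a group, such correlations cannot decide whether the numbers mark pairs. With a replicate block the members called were 3, 0 and 5 in these comparisons, and over all genes 954, 0 and 664. With each library left out, the members' median log2 fold change was 0.00 to 0.13 in the first comparison, -0.17 to -0.04 in KO-labelled against WT isotype and 0.11 to 0.24 in anti-CD40L against KO-labelled. Depth was lowest in anti-CD40L replicate 3, which had a count for 11673 genes, against 14290 to 17428 in the other libraries.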
